A study of Mus musculus with 100 samples.

Results

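MYT1L is a zinc finger transcription factor found in nearly all neurons, where it is known for keeping genes of other cell fates low while neurons differentiate. Together with its relatives MYT1 and ST18 it binds DNA with a short AAGTT core. In the late embryonic cortex most excitatory neurons have already been born and are migrating into the upper layers, radial glia still divide along the ventricle, GABAergic interneurons arrive from the ganglionic eminences, and the first synapses form.

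Gene expression in cortex late in gestation (embryonic day E18.5) was compared between animals homozygous for a Myt1l frameshift allele (HOM, 5 animals) and wild-type animals (WT, 5 animals). The comparison took all E18.5 libraries of these genotypes, 20 of the 100 libraries of the series and 10 of its 53 animals, and asked which genes across the genome depend on intact Myt1l alleles just before birth. The labels give the strain of both groups as C57BL/6J, while the study's methods name C57BL/6N zygotes and mates. Bulk RNA from the whole cortex of each animal had been sequenced in 2 libraries. The allele came from zygotes electroporated with Cas9 and a guide RNA, so HOM animals carry it in the germline and in every cell type, with no Cre driver involved. Per the labels, sequencing identifiers (called batch here) were 1 or 3. HOM_454 and HOM_455 (female) and HOM_461 (male) were in batch 1, and the males HOM_728 and HOM_730 were in batch 3. WT_449 and WT_456 were females of batch 1 and WT_709, WT_732 and WT_735 were males of batch 3, so batch and sex cannot be told apart among WT animals. The 6 heterozygous animals of E18.5 (HET) entered the fit to separate batch from sex.

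Library depth was 15.4 to 28.2 Mreads counted in genes, and both libraries of an animal were summed to 31.6 to 56.02 Mreads. Levels are given as CPM (read counts per 1 Mreads of the library), which account for library size and not for gene length, and differences as HOM minus WT on the log2 scale with their standard errors (SE). The first principal component of the 10 animals held 53.01% of the variance, and batch accounted for 92.1% of it. All 12 genes listed for cortical identity passed the filter on low counts and summed to 3436 to 4518 CPM in WT and 3259 to 4186 CPM in HOM, whereas none of the 16 genes listed for hindbrain and spinal cord, Hox genes among them, passed it.

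The allele lacks 7 bases of the first coding stretch of Myt1l, at chr12:29783648-29783654 (mm10), in exon 6 of the 25 exons of the annotated transcripts Myt1l-201, Myt1l-202 and Myt1l-205. The coding starts are shown because the lost bases define the HOM group. Capitals mark the 7 bases missing from the mutant sequence, and reading on from the deletion gives a stop after 77 codons in place of 1185 or 1187 codons.
wild-type Myt1l coding start: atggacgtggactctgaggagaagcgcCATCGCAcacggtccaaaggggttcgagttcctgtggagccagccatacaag
mutant Myt1l coding start: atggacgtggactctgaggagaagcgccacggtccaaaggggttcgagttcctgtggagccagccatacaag
The genotyping primer for the wild-type allele places the same loss one base further along, and both placements leave the same mutant sequence.
wild-type forward primer: ctctgaggagaagcgccATCGCAC

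The Myt1l transcript itself was more abundant in HOM than in WT cortex. Myt1l (ENSMUSG00000061911.15, chr12:29528384-29923213) was at 442.6, 380.4, 462, 522 and 532 CPM in WT_449, WT_456, WT_709, WT_732 and WT_735. In HOM_454, HOM_455, HOM_461, HOM_728 and HOM_730 it was at 785, 891, 893, 845 and 1026 CPM. Every HOM animal lay above every WT animal, and the gap held within batch 1 and within batch 3. Group levels were 468 ± 62.1 CPM in WT and 888 ± 88.8 CPM in HOM (SD, n = 5 each), a 1.98-fold difference (log2 0.99 ± 0.10 SE, adjusted p = 0.000773, edgeR's quasi-likelihood test with batch and sex as covariates). The HET animals, which share no library with HOM, were at 639.8 ± 117 CPM (SD, n = 6). The transcript count does not report protein, and most of the transcript lies outside the deleted bases.

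The relatives of Myt1l were read next. Myt1 had 41.6, 34.1, 29.5, 38.2 and 35.7 CPM in the 5 WT animals and 48.8, 47.4, 49.2, 51.1 and 59.8 CPM in the 5 HOM animals, in the animal order given for Myt1l, which is kept throughout. The groups did not overlap, and Myt1 rose (log2 0.54 ± 0.14, adjusted p = 0.0459). St18 was at 1.98 to 7.51 CPM in WT and 2.55 to 6.39 CPM in HOM, with overlapping groups and no call (log2 0.18 ± 0.26, adjusted p = 0.788).

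With batch and sex as covariates, 579 of 18496 genes tested (3.13%) differed between HOM and WT at a false discovery rate of 0.05, 266 higher (1.44%) and 313 lower (1.69%) in HOM. An unadjusted p of 0.05 was reached by 3484 genes, beside 925 expected if no gene differed. The genes that rose and fell were unlike in size and level. Risers had a median log2 difference of 0.54 (0.24 to 2.77) at a median WT level of 11.7 CPM, and 24 of them changed by at least 1 on the log2 scale. Fallers had a median of −0.39 (−0.19 to −1.72) at a median WT level of 61.4 CPM, and 6 of them fell by at least 1. Over all genes tested the median difference was 0.01 and the median WT level 14.3 CPM. HOM and WT animals did not overlap within either batch, in the same direction, for 235 risers (88.3%) and 287 fallers (91.7%). The share over all genes tested was 10.3%. Risers and fallers were chosen on these same animals, so their lack of overlap was in part fixed in advance. The plot of level against difference shows risers over the whole lower range of levels and fallers mostly above the middle of it.

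**Figure D1:**
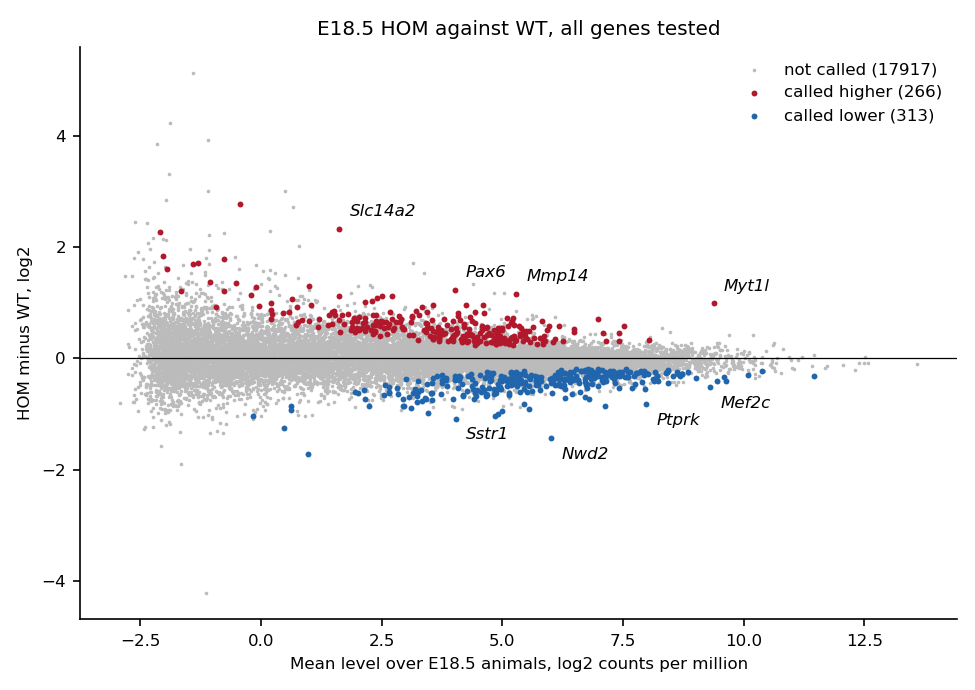
HOM minus WT difference (log2) of each of 18496 genes against its mean level over E18.5 animals (log2 CPM), with the 266 genes called higher in red, the 313 called lower in blue and the others in grey. Called risers reach a log2 difference of 2.77 at low levels, and called fallers lie mainly at levels above the median gene.

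Split by level into 5 equal bins, the lowest bin held 13 genes called higher and 1 called lower (0.378% called), and the highest bin held 158 calls, 13 of them higher and the rest lower (4.27% called). The median difference of all genes in a bin went from 0.06 in the lowest through 0.05, 0.03 and −0.01 to −0.04 in the highest. By gene length, 0.919% of the shortest 5th were called (genes under 4.23 kb), against 3.00%, 3.51%, 4.32% and 3.89% in the longer bins. Median gene length was 26.95 kb for risers, 29.3 kb for fallers and 18.9 kb for all genes tested. Called genes came from all autosomes and the X chromosome, with 1.67% of genes called on chromosome 1 at the low end and 4.96% on chromosome 15 at the high end (12 higher and 23 lower of 706). None of the 23 mitochondrially encoded genes tested was called. Protein-coding genes gave 552 of the calls (245 higher and 307 lower of 14836), and 0 of 610 processed pseudogenes, 0 of 285 miRNA genes and 0 of 190 snoRNA genes were called. Of the antisense, lincRNA and processed transcript classes, 7 of 543, 4 of 596 and 7 of 358 rose and 1, 1 and 2 fell.

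The number of calls differed between batches. Fits within a batch also held its 3 HET animals. Within batch 3 alone (3 WT and 2 HOM animals beside the HET animals), 1739 of 18653 genes passed. Within batch 1 alone (2 WT and 3 HOM animals beside the HET animals) none passed with edgeR. There, 1043 of 18847 genes reached an unadjusted p of 0.05, beside 942 expected by chance. The genes called with all animals had the same direction in both batches for 265 of 266 risers and 313 of 313 fallers, a consequence in part of their being chosen on these animals. Their median difference was 0.36 in batch 1 and 0.68 in batch 3 for risers, and −0.24 and −0.49 for fallers. In a test of the batch by HOM interaction, 8 of 18920 genes (0.0423%) passed, and 2701 reached an unadjusted p of 0.05, beside 946 expected by chance. Without HOM_730 the main count fell to 62 genes, and without WT_449 it was 1033. The bar plot of left-out animals gives the count for each animal; each of the 5 animals of batch 3, when left out, took the count to 215 or fewer, and so did WT_456 of batch 1 (205).

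**Figure D2:**
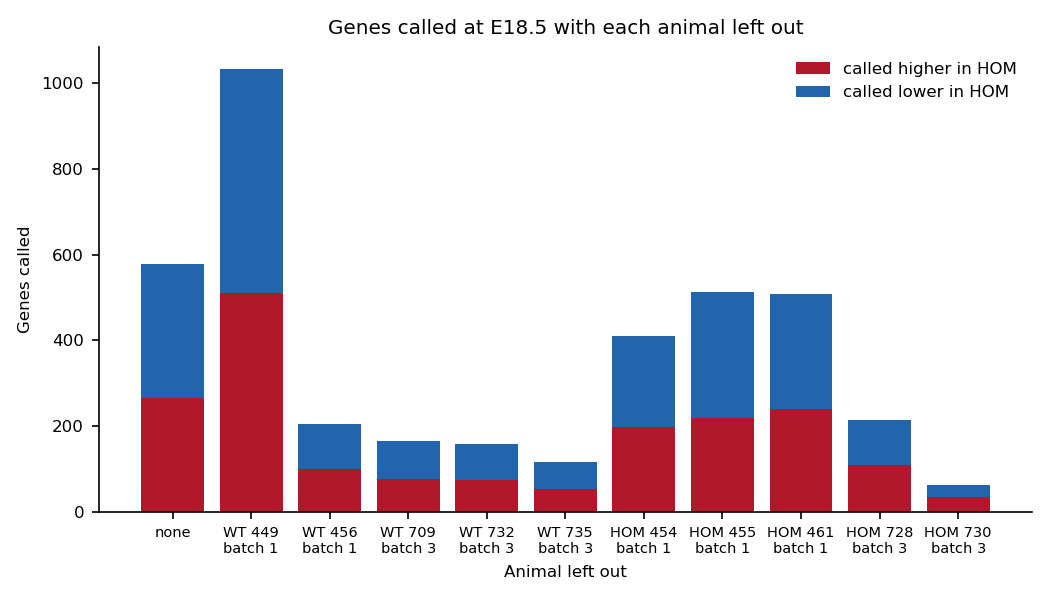
Number of genes called at E18.5 (red, higher in HOM; blue, lower) with no animal left out and with each of the 5 WT and 5 HOM animals left out in turn. The count is 579 with all animals, 62 without HOM_730, 117 without WT_735 and 1033 without WT_449.

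Among the 6 risers with the smallest p was a matrix protease. Mmp14 (ENSMUSG00000000957.11, chr14:54431612-54445364), a membrane-bound metalloprotease that cleaves extracellular matrix and activates other proteases, was at 33.6, 27.2, 22.7, 24.2 and 23.4 CPM in WT. HOM animals had 46.6, 46.6, 59, 71.7 and 72.5 CPM. All HOM animals exceeded all WT animals, and the HOM animals of batch 3 were the highest while the WT animals of batch 3 were the lowest (log2 1.16 ± 0.15, adjusted p = 0.00286; 0.65 within batch 1 and 1.64 within batch 3). HET animals were at 32.7 ± 4.12 CPM (SD, n = 6). Of 48 tested genes of matrix proteases and their inhibitors, Mmp14 and Adamts6 (log2 0.78 ± 0.16, adjusted p = 0.0198) rose and Mmp24 (log2 −0.32 ± 0.06, adjusted p = 0.0135) fell. Of the 48, 6.25% were called, beside 3.13% of all genes, with a median of −0.01 (0.03 within batch 1 and −0.19 within batch 3).

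Further strong risers served unrelated functions. Slc14a2 (ENSMUSG00000024552.16, chr18:78146148-78596942), a urea transporter, had the largest difference among called genes above the level set for naming, from 2.24, 0.997, 0.283, 0.875 and 0.163 CPM in WT to 8.04, 3.84, 3.13, 3.62 and 5.3 CPM in HOM (log2 2.33 ± 0.59, adjusted p = 0.0454). Its groups did not overlap, but the WT animals differed among themselves from 0.163 to 2.24 CPM. Mro (ENSMUSG00000064036.15, chr18:73859385-73881333), known as maestro, was at 3.56, 4.09, 3.08, 3.13 and 1.83 CPM in WT and 8.06, 7.97, 7.25, 5.1 and 5.77 CPM in HOM (log2 1.03 ± 0.13, adjusted p = 0.00286), with like differences in both batches (1.06 and 1.04). Fkbp14 (ENSMUSG00000038074.16, chr6:54577604-54597308), a prolyl isomerase of the endoplasmic reticulum, was at 3.49, 3.89, 2.96, 2.23 and 2.58 CPM in WT and 9.35, 7.91, 6.68, 4.12 and 5.38 CPM in HOM (log2 1.01 ± 0.15, adjusted p = 0.00449). The difference in Fkbp14 was also similar in both batches (1.16 and 0.90), and no HOM animal overlapped the WT range. Cryz, a quinone reductase that also binds RNA, rose from 4.84 to 7.28 CPM to 7.66 to 10.9 CPM (log2 0.65 ± 0.08, adjusted p = 0.00286).

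Both Ptx3 and H2-T23 were among the larger rises. Ptx3, a secreted pentraxin of innate immunity, had 6.53, 4.34, 4.03, 4.29 and 2.52 CPM in WT and 7.82, 7.54, 9.29, 11.7 and 11.2 CPM in HOM (log2 1.12 ± 0.22, adjusted p = 0.0177). The groups stayed apart, by little in batch 1 and by much in batch 3 (0.50 and 1.69). Ptx3 lies within Veph1 on the opposite strand, and since the strand setting of the counting was not given, reads of such partners cannot be told apart. H2-T23, a non-classical class I histocompatibility gene with close relatives that may share reads, rose from 1.37 to 2.57 CPM to 3.6 to 5.98 CPM (log2 1.12 ± 0.19, adjusted p = 0.00797). It was the only riser of 17 tested class I and II genes (5.88% called, beside 3.13% of all genes), whose median was 0.41.

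**Figure D3:**
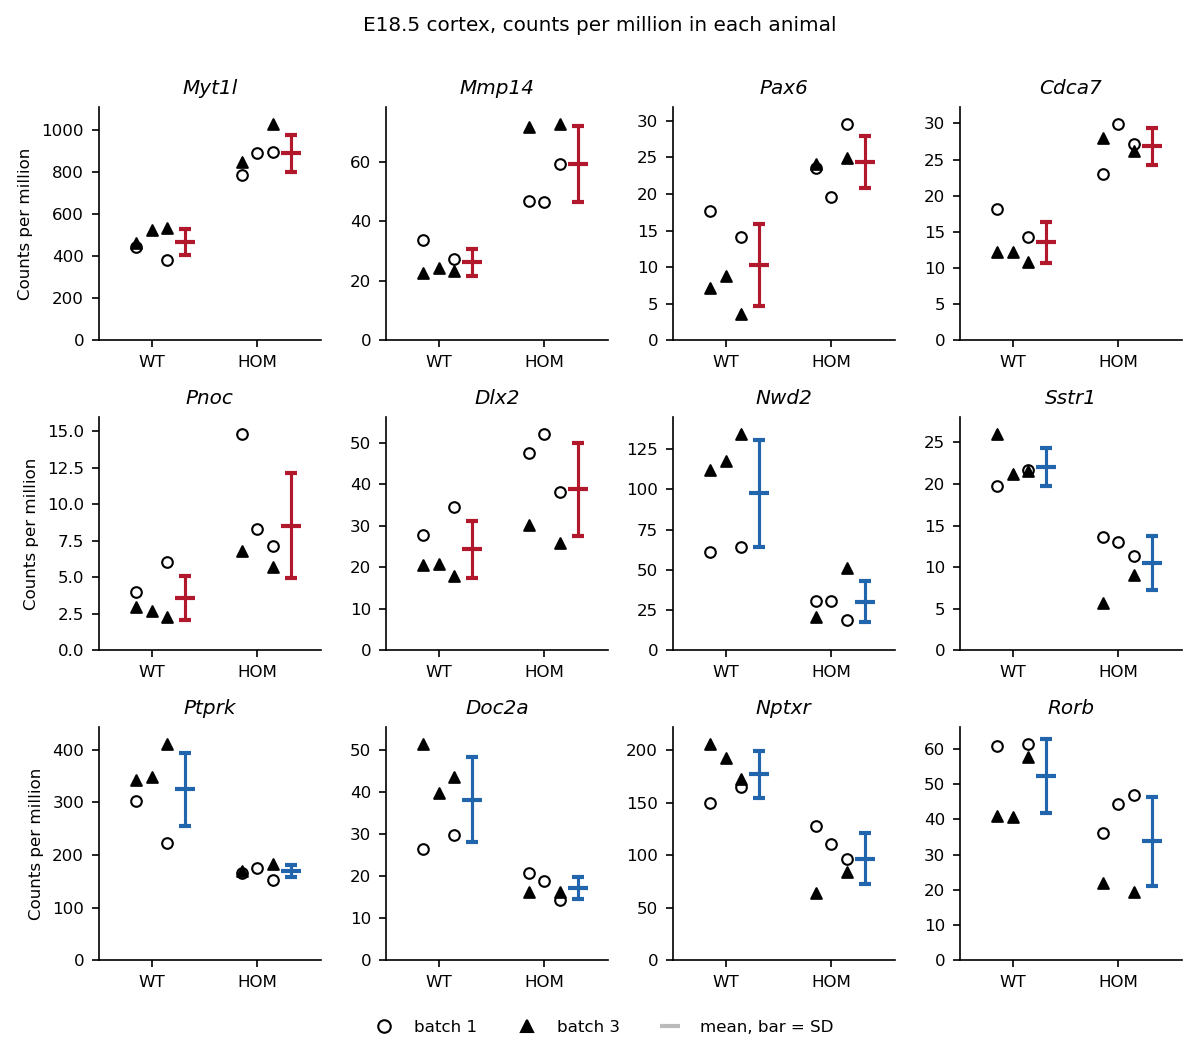
CPM of 12 genes in each E18.5 animal, WT on the left and HOM on the right of each panel, with circles for batch 1 and triangles for batch 3 and with the group mean and SD beside them (red where the gene rose, blue where it fell). In Pax6 the WT animals of batch 3 lie at 3.60 to 8.81 CPM and those of batch 1 at 14.2 and 17.7 CPM, whereas HOM animals of both batches lie between 19.6 and 29.5 CPM.

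Some genes of progenitor cells rose. Pax6 (ENSMUSG00000027168.21, chr2:105668900-105697364), the homeobox factor that marks radial glia, was at 17.7, 14.2, 7.14, 8.81 and 3.6 CPM in WT and at 23.6, 19.6, 29.5, 24 and 24.9 CPM in HOM. The lowest HOM animal was above the highest WT animal, and the WT animals of batch 3 were lower than those of batch 1 while HOM animals of both batches were alike (log2 1.23 ± 0.29, adjusted p = 0.0362; 0.49 within batch 1 and 1.92 within batch 3). Of 20 radial glia genes tested, Pax6, Prom1 and Sox2 rose and none fell (15% called, beside 3.13% of all genes). The median of the 20 was 0.41 (0.18 within batch 1 and 0.56 within batch 3) beside 0.01 for all genes. Prom1, which encodes the apical membrane protein CD133, had 10.5 to 13.7 CPM in WT and 13.7 to 23.4 CPM in HOM (log2 0.59 ± 0.14, adjusted p = 0.0366). Sox2, the factor that keeps progenitors undifferentiated, had 31.3, 35.8, 17.6, 16.1 and 14.8 CPM in WT and 47.4, 47.1, 39.4, 23.7 and 22.8 CPM in HOM (log2 0.46 ± 0.12, adjusted p = 0.0448). Its HOM animals of batch 3 lay below WT animals of batch 1, and within each batch HOM animals were the higher ones. Sox2ot, an annotated gene that overlaps Sox2 on the same strand, was also called higher (log2 0.42 ± 0.09, adjusted p = 0.0244). Reads that both annotations cover cannot be told apart. In bulk tissue, a larger share of cells of a type and more RNA per cell cannot be told apart.

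3 genes outside the radial glia list, grouped here after their values were seen, also rose. Nr2e1 (ENSMUSG00000019803.11, chr10:42561963-42583632), the nuclear receptor TLX of neural stem cells, was at 12.5, 10.6, 5.63, 5.96 and 4.71 CPM in WT and 17.1, 12.7, 17.5, 12.6 and 13 CPM in HOM, with no overlap (log2 0.83 ± 0.19, adjusted p = 0.0346). Fgfr2, a receptor for fibroblast growth factors, rose from 25.8 to 31.4 CPM to 37.1 to 56 CPM without overlap (log2 0.63 ± 0.12, adjusted p = 0.0156), though its annotated span covers many other genes on both strands. Phgdh, the first enzyme of serine synthesis and abundant in radial glia, was at 34.7, 37.3, 27.7, 26.8 and 17.1 CPM in WT and 50.1, 44.3, 42.7, 48.4 and 45.4 CPM in HOM (log2 0.66 ± 0.17, adjusted p = 0.0486). Only WT_735 stood far below the other WT animals in Phgdh.

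Among cell division genes, most calls were in DNA replication. Of 45 replication genes tested, 13 rose (28.9%, beside 1.44% of all genes called higher), none fell and 42 had a positive difference, with a median of 0.35. Cdca7 (ENSMUSG00000055612.15, chr2:72476159-72486893), a MYC-responsive gene of S phase, was at 18.2, 14.3, 12.2, 12.3 and 10.9 CPM in WT and 23, 29.9, 27.1, 28 and 26.2 CPM in HOM, with a gap between the groups in both batches (log2 0.96 ± 0.13, adjusted p = 0.00286; 0.69 and 1.22). Rpa2, a subunit of the complex that coats single-stranded DNA, rose from 12.3 to 17.6 CPM to 21.7 to 26 CPM (log2 0.62 ± 0.10, adjusted p = 0.00797). Gins3 of the replicative helicase and Rrm1 of ribonucleotide reductase rose by 0.53 ± 0.11 and 0.40 ± 0.08 on the log2 scale (SE; adjusted p = 0.019 and 0.0193). Neither of these overlapped between groups. The other 9 were Rpa1, Cdc6, Pola1, Pole, Chaf1a, Chaf1b, Mcm6, E2f2 and Uhrf1.

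Mitotic genes had a larger median, 0.56 with all 39 tested genes above 0, yet only Nusap1, a spindle protein, rose, from 11.4, 8.55, 5.47, 5.81 and 4.45 CPM to 11.2, 12.2, 12.9, 14.2 and 11.7 CPM (log2 0.79 ± 0.21, adjusted p = 0.05), just inside the threshold. WT_449 overlapped the HOM animals. The call of Nusap1 made up 2.56% of the mitotic genes, beside 3.13% of all genes called. For mitosis the median was 0.08 within batch 1 and 1.02 within batch 3, and for replication 0.11 and 0.58. Foxm1, a mitotic transcription factor, was at 9.65 to 14.4 CPM in WT and 12.6 to 22.1 CPM in HOM, and the difference was not called (log2 0.51 ± 0.16, adjusted p = 0.101). Histone genes had 2 risers of 20 tested (10% called, beside 3.13% of all genes), H2az2 (log2 0.57 ± 0.12, adjusted p = 0.0198) and H1f0 (log2 0.46 ± 0.11, adjusted p = 0.0325).

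Intermediate progenitors are the neuron-producing descendants of radial glia. Of 13 tested genes, only Gadd45g rose, from 10.3, 6.58, 4.94, 6.35 and 4.02 CPM to 10.2, 10.6, 11, 14 and 10.8 CPM (log2 0.76 ± 0.19, adjusted p = 0.0448), and the group median was 0.59. That median was −0.12 within batch 1 and 0.96 within batch 3. The share called was 7.69%, beside 3.13% of all genes. Eomes, the defining factor of these cells (TBR2), chosen here after its values were seen, was at 12.8 ± 12.1 CPM in WT and 32.3 ± 20.4 CPM in HOM (SD, n = 5 each), and its difference was −0.63 within batch 1 and 2.96 within batch 3 with no call (log2 1.34 ± 0.64, adjusted p = 0.277).

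**Figure D4:**
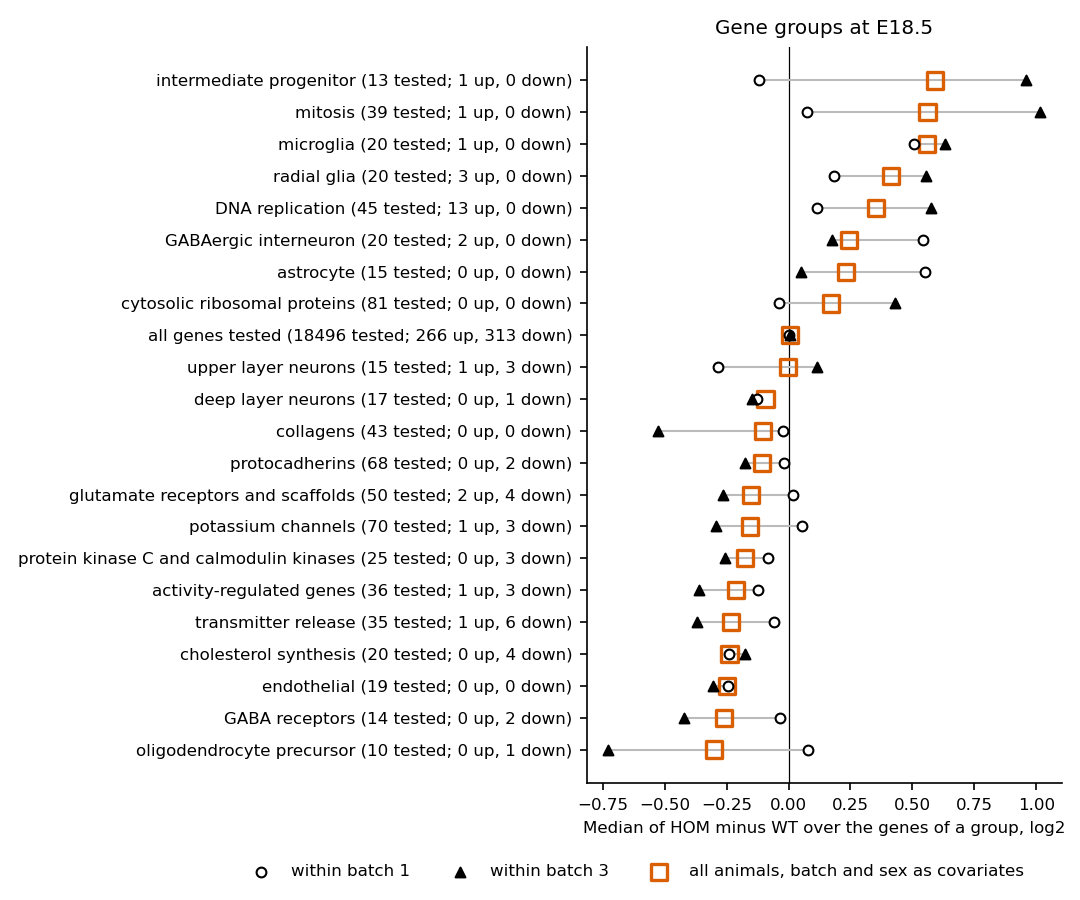
Median HOM minus WT difference (log2) over the tested genes of 22 groups, as squares for all animals with batch and sex as covariates, circles for batch 1 alone and triangles for batch 3 alone, with the number of genes tested, called higher and called lower in each label. Mitosis has 0.08 in batch 1 and 1.02 in batch 3, whereas microglia, cholesterol synthesis and endothelial medians lie close together in both batches.

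The calls among interneuron genes were higher in HOM. Dlx2 (ENSMUSG00000023391.8, chr2:71543408-71546754), a homeobox factor of ganglionic eminence precursors, was at 27.9, 34.5, 20.6, 20.7 and 17.9 CPM in WT and 47.6, 52.1, 38.2, 30.1 and 25.9 CPM in HOM (log2 0.55 ± 0.09, adjusted p = 0.00684). The groups overlapped across batches, since WT_456 was above HOM_728 and HOM_730, and did not overlap within either batch. Dlx1as (ENSMUSG00000084946.2, chr2:71516454-71537891), the antisense transcript over Dlx1, was at 30.8, 29.6, 20.8, 22.1 and 19 CPM in WT and 40.4, 39.3, 37.9, 32.6 and 32.2 CPM in HOM with no overlap (log2 0.51 ± 0.07, adjusted p = 0.00286), and Dlx1 reads on the other strand cannot be told apart from it. Sp8, a factor of caudal and dorsal lateral eminence derivatives, had 5.7, 6.18, 3.4, 3.05 and 2.39 CPM in WT and 14.5, 13.3, 9.49, 3.38 and 5.33 CPM in HOM (log2 0.83 ± 0.19, adjusted p = 0.0338), with overlap in batch 3. Of 20 interneuron genes tested, Dlx2 and Sp8 rose and none fell (10% called, beside 3.13% of all genes). A positive difference was found in 19 of the 20 (median 0.24, with 0.54 within batch 1 and 0.17 within batch 3).

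Of a neuropeptide precursor, a calcium-binding gene and a peptide receptor read next, the precursor and the calcium-binding gene rose and the receptor fell. Pnoc (ENSMUSG00000045731.6, chr14:65400673-65425472), the precursor of nociceptin, was at 4.02, 6.06, 2.96, 2.68 and 2.29 CPM in WT and 14.8, 8.28, 7.13, 6.78 and 5.72 CPM in HOM, with HOM_454 far above the rest (log2 1.12 ± 0.19, adjusted p = 0.00906). Only WT_456 reached into the HOM range. Calb2, which encodes calretinin and also marks thalamic relay and Cajal-Retzius cells, rose from 19, 22.9, 11.1, 11.9 and 9.22 CPM to 42.2, 31.2, 22.1, 22.6 and 16.5 CPM (log2 0.75 ± 0.17, adjusted p = 0.0311) with overlap in batch 1. Sstr1 (ENSMUSG00000035431.4, chr12:58211772-58214444), a somatostatin receptor, fell from 19.8, 21.7, 26, 21.2 and 21.6 CPM to 13.6, 13, 11.4, 5.65 and 9.00 CPM. No HOM animal reached the WT range, and the fall was larger in batch 3 (log2 −1.08 ± 0.18, adjusted p = 0.00797; −0.62 and −1.62). The list of neuropeptides and their receptors does not hold Pnoc. Over its 38 tested genes Sstr1 was the only call (2.63%, beside 3.13% of all genes), with a median of −0.14 (0.17 within batch 1 and −0.48 within batch 3).

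Markers of neighbouring tissue were measured beside these. The 15 striatal genes tested summed to 277 to 479.5 CPM in WT and 234 to 692 CPM in HOM, none was called, and their median was 1.12 within batch 1 and −0.80 within batch 3. Of 13 thalamic genes, Slc17a6 and Calb2 rose (15.4% called, beside 3.13% of all genes). Summed levels of the 13 were 228 to 290.3 CPM in WT and 171 to 321 CPM in HOM. The 6 of 9 choroid plexus genes tested summed to 1.52 to 4.49 CPM and 1.84 to 8.84 CPM, with Cldn2, Folr1 and Kcne2 under the filter on low counts. Erythroid genes (7 of 13 tested) summed to 179 to 327 CPM and 161 to 643 CPM, and muscle genes (8 of 17 tested) to 20.01 to 23.9 CPM and 24.3 to 28.1 CPM. The part of dissection in the interneuron and thalamic results was not tested.

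Among fallers, the largest difference at appreciable levels was in Nwd2 (ENSMUSG00000090061.9, chr5:63649102-63810546), a gene of the NACHT and WD repeat class. WT animals had 60.9, 64, 112, 117 and 134 CPM and HOM animals 30.8, 30.5, 18.7, 20.7 and 50.9 CPM. HOM animals were lower than every WT animal, and WT animals of batch 3 were the highest (log2 −1.43 ± 0.22, adjusted p = 0.00684; −1.13 and −1.74). Ptprk (ENSMUSG00000019889.10, chr10:28074820-28597397), a receptor tyrosine phosphatase of cell adhesion, fell from 302, 223, 342, 348 and 411 CPM to 165, 176, 153, 169.9 and 183 CPM (log2 −0.82 ± 0.13, adjusted p = 0.00748). HOM animals of Ptprk lay close together, within 153 to 183 CPM, whereas WT animals spread widely. Iffo2, an intermediate filament family member, had the smallest p of the fallers, with 37.5 to 44.8 CPM in WT and 23.7 to 28.3 CPM in HOM (log2 −0.65 ± 0.07, adjusted p = 0.00163) and like differences in both batches (−0.57 and −0.72). Bean1 fell from 27.5 to 52.8 CPM to 16.3 to 20.5 CPM (log2 −0.99 ± 0.16, adjusted p = 0.00797).

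Several genes of transmitter release fell. Of 35 tested, 6 fell and 1 rose (20% called, beside 3.13% of all genes), 26 had a negative difference, and the median was −0.23 (−0.06 within batch 1 and −0.37 within batch 3). Doc2a (ENSMUSG00000052301.14, chr7:126847416-126852705), a calcium sensor of spontaneous release, was at 26.3, 29.8, 51.3, 39.8 and 43.5 CPM in WT and 20.8, 18.8, 14.3, 16.1 and 16.2 CPM in HOM, with no overlap and the wider gap in batch 3 (log2 −1.03 ± 0.19, adjusted p = 0.014; −0.55 and −1.45). Syt1, the calcium sensor of fast release, stood within 316 to 327 CPM in WT and spread over 181 to 302 CPM in HOM (log2 −0.41 ± 0.09, adjusted p = 0.0341). Stx1a, a plasma membrane SNARE, had 100.2, 117, 169, 151 and 149 CPM in WT and 95.7, 92.7, 87.3, 89.8 and 96.2 CPM in HOM (log2 −0.47 ± 0.12, adjusted p = 0.0448), with little difference in batch 1. Other calls of the list included Rims4, an active zone protein (log2 −0.45 ± 0.10, adjusted p = 0.0293), Syn1, a vesicle phosphoprotein, and the riser Slc17a6, which encodes the vesicular glutamate transporter VGLUT2 (log2 0.46 ± 0.09, adjusted p = 0.0198). Summed levels of the list were 4953 to 5618 CPM in WT and 3949 to 5019 CPM in HOM, which overlap slightly.

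Synaptotagmins were called in both directions. Syt2 rose (log2 0.80 ± 0.20, adjusted p = 0.0425), and Syt1, Syt7 (log2 −0.46 ± 0.11, adjusted p = 0.0369) and Syt9 (log2 −0.32 ± 0.08, adjusted p = 0.0372) fell. Of 20 tested genes 20% were called, beside 3.13% of all genes, and their median was −0.12 (0.10 within batch 1 and −0.27 within batch 3). Snap91, a clathrin adaptor of synaptic vesicles, fell from 284, 266, 261, 259 and 267 CPM to 233, 238, 209, 166 and 175 CPM, with every HOM animal below every WT animal (log2 −0.42 ± 0.07, adjusted p = 0.00797).

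Postsynaptic genes were called in both directions. Of 50 glutamate receptor and scaffold genes tested, 4 fell and 2 rose (12% called, beside 3.13% of all genes), with a median of −0.15 (0.02 within batch 1 and −0.27 within batch 3). Nptxr (ENSMUSG00000022421.19, chr15:79786351-79804766), the neuronal pentraxin receptor that clusters AMPA receptors, was at 149.7, 165, 206, 193 and 173 CPM in WT and 128, 110.5, 96.1, 64.5 and 84 CPM in HOM. The groups did not overlap, and the fall was −0.40 in batch 1 and −1.34 in batch 3 (log2 −0.85 ± 0.15, adjusted p = 0.00923). An annotated gene on the same strand, Npcd, shares its locus. Dlgap1, a scaffold bound to PSD-95, fell from 169 to 190.0 CPM to 113 to 155 CPM (log2 −0.36 ± 0.08, adjusted p = 0.0257). The other fallers were Grin1, the obligatory subunit of NMDA receptors, and Dlgap3. Dlg1, the scaffold SAP97, and Homer3 rose (log2 0.49 ± 0.10, adjusted p = 0.0209, and log2 0.41 ± 0.08, adjusted p = 0.021). Homer3 overlapped between groups and its HOM animals of batch 3 were highest.

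Inhibitory receptors and ion channels gave few calls. Gabra5 fell from 64, 65.1, 68.1, 54.7 and 54.8 CPM to 53.4, 55.1, 47.6, 33.5 and 32.1 CPM (log2 −0.56 ± 0.12, adjusted p = 0.0296), and HOM animals of batch 3 were the lowest and the groups overlapped across batches. The 14 tested GABA receptor genes had a median of −0.26 (−0.03 within batch 1 and −0.42 within batch 3). Of 70 potassium channel genes tested, Kcnv1 (log2 −0.53 ± 0.09, adjusted p = 0.0108), Kcnk3 (log2 −0.50 ± 0.12, adjusted p = 0.0424) and Kcnn1 (log2 −0.57 ± 0.14, adjusted p = 0.0441) fell, and Kcnj5 (log2 0.82 ± 0.16, adjusted p = 0.0156) rose. Of the 70, 5.71% were called, beside 3.13% of all genes, at a median of −0.16 (0.05 within batch 1 and −0.29 within batch 3). No sodium channel gene of 11 was called. Kcnip4, an auxiliary subunit of A-type channels, fell (log2 −0.85 ± 0.18, adjusted p = 0.0256), almost wholly in batch 3 (−0.29 and −1.44).

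Some layer identity genes changed. Rorb (ENSMUSG00000036192.15, chr19:18930605-19111196), the nuclear receptor of layer 4 neurons, was at 60.7, 61.3, 40.9, 40.8 and 57.7 CPM in WT and 36.2, 44.4, 47, 21.9 and 19.4 CPM in HOM (log2 −0.82 ± 0.15, adjusted p = 0.0135). Across all animals the groups overlapped, and within each batch all HOM animals were lower. Mef2c (ENSMUSG00000005583.16, chr13:83504034-83667080), an activity-dependent factor of upper layers and of interneurons, fell from 792, 702, 694, 671.7 and 847 CPM to 453, 598, 479, 514 and 532 CPM with no overlap and like differences in both batches (log2 −0.52 ± 0.11, adjusted p = 0.0235; −0.54 and −0.48). Rasgrf2, an exchange factor of upper layer neurons, fell from 28.8 to 51.4 CPM to 14.7 to 26.4 CPM (log2 −0.95 ± 0.20, adjusted p = 0.0257). Cux2, a homeobox factor of the same layers, rose from 212, 229.7, 222, 274 and 273 CPM to 255, 286, 281, 331 and 305 CPM (log2 0.32 ± 0.08, adjusted p = 0.0499), so calls among upper layer genes went in both directions. Of the 15 upper layer genes tested, 26.7% were called, beside 3.13% of all genes. Their median was close to 0 over all animals, −0.29 within batch 1 and 0.12 within batch 3. Of 17 deep layer genes, only Ccn2, which marks subplate neurons and responds to YAP, was called (5.88%, beside 3.13% of all genes). Ccn2 fell from 9.52, 8.35, 13.7, 10.7 and 12.7 CPM to 5.88, 6.42, 5.53, 4.25 and 5.98 CPM (log2 −0.89 ± 0.17, adjusted p = 0.0161).

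Guidance and adhesion genes were read by family. Unc5c, a netrin receptor, was at 54.7, 57.1, 61.1, 61 and 84.4 CPM in WT and 33, 39.4, 29.8, 22.7 and 35.3 CPM in HOM, with WT_735 highest and no overlap (log2 −0.90 ± 0.19, adjusted p = 0.0217). Epha7, an Eph receptor, fell from 119.6, 105, 97.6, 94.5 and 107 CPM to 75, 83.8, 79.8, 42.4 and 68.7 CPM, and HOM_728 was the lowest animal (log2 −0.64 ± 0.12, adjusted p = 0.0156). Efna3 fell by a smaller amount (log2 −0.38 ± 0.08, adjusted p = 0.0305), and the 21 ephrin and Eph receptor genes had a median of −0.16 (−0.18 within batch 1 and −0.11 within batch 3). Sema6b (log2 −0.37 ± 0.07, adjusted p = 0.0122) was the only call of 31 semaphorin and plexin genes, a share of 3.23% and near the 3.13% of all genes. Cdh9 and Cdh10, classical cadherins, fell from 11.6 to 15.9 to 5.51 to 9.41 CPM (log2 −0.77 ± 0.15, adjusted p = 0.0191) and from 50.7 to 68.4 to 40.8 to 47.9 CPM (log2 −0.42 ± 0.08, adjusted p = 0.0177). Of 68 protocadherins tested, 61 had a negative difference at a median of −0.11 (−0.02 within batch 1 and −0.18 within batch 3), but only Pcdh9 and Pcdh20 fell (log2 −0.35 ± 0.08, adjusted p = 0.032, and log2 −0.74 ± 0.19, adjusted p = 0.0465), and their share of 2.94% was near that of all genes, 3.13%.

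WNT genes were called in both directions. Fzd2, a frizzled receptor, had 13.1, 11.2, 4.84, 6.89 and 5.59 CPM in WT and 14.9, 15.6, 20.1, 16.2 and 17.2 CPM in HOM, again with WT animals of batch 3 lowest and HOM animals of both batches alike (log2 0.96 ± 0.20, adjusted p = 0.0217). Fzd9 (ENSMUSG00000049551.2, chr5:135248938-135251230) was at 10.4, 9.15, 13.4, 11.4 and 13.2 CPM in WT and 5.52, 6.17, 4.8, 6.94 and 8.11 CPM in HOM (log2 −0.79 ± 0.11, adjusted p = 0.00286), with like falls in both batches (−0.82 and −0.73). Nkd2, an inhibitor of WNT signalling, fell from 28.5, 31, 38, 38.8 and 40.2 CPM to 22.2, 22.5, 22.4, 27.5 and 27.6 CPM with no overlap (log2 −0.45 ± 0.06, adjusted p = 0.00324). Of 43 tested WNT ligands and receptors, the ligand Wnt7a also rose, and the receptor Fzd4 (log2 −0.54 ± 0.12, adjusted p = 0.0255) and the agonist Rspo2 also fell. Of the 43, 13.95% were called, beside 3.13% of all genes, and the median was 0.03 (−0.03 within batch 1 and −0.04 within batch 3). In the NOTCH pathway, none of 24 tested genes was called with edgeR (0%, beside 3.13% of all genes). So few genes cannot tell 0% from the share of all genes. The NOTCH median was 0.08 (−0.01 within batch 1 and 0.15 within batch 3).

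Cholesterol synthesis gave fallers and no riser. Of 20 genes tested, 19 had a negative difference and 4 fell (20% called, beside 3.13% of all genes). The median was −0.24 (−0.24 within batch 1 and −0.17 within batch 3). Hmgcs1 (ENSMUSG00000093930.2, chr13:119690379-119708260), the enzyme that makes HMG-CoA, was at 896, 823, 794, 835 and 826 CPM in WT and 663, 722, 632, 657 and 675.1 CPM in HOM (log2 −0.33 ± 0.08, adjusted p = 0.0383). Every HOM animal was below every WT animal. Dhcr7 and Sqle, which act later in the pathway, fell by 0.28 ± 0.06 and 0.25 ± 0.07 on the log2 scale (SE; adjusted p = 0.0344 and 0.0486). Hk2, the hexokinase of glycolysis, rose from 10.3, 7.15, 5.82, 6.49 and 4.97 CPM to 12, 13, 12.9, 14.4 and 11.1 CPM (log2 0.84 ± 0.14, adjusted p = 0.00797), without overlap and as the only call of 19 hypoxia and glycolysis genes.

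Genes that respond to neuronal activity or stress were mixed. Of 36 activity-regulated genes, Plk3, Ccn2 and Klf10 fell and Jun rose (11.1% called, beside 3.13% of all genes). The median of the 36 was −0.21 (−0.12 within batch 1 and −0.36 within batch 3). Plk3, a polo-like kinase induced by stress, was at 11.6, 12.1, 17.6, 14.5 and 15 CPM in WT and 8.37, 7.81, 7.09, 5.54 and 5.43 CPM in HOM (log2 −0.99 ± 0.16, adjusted p = 0.00797). Its groups were far apart, more so in batch 3. Klf10, Klf6 and Klf16, zinc finger factors of the KLF family, fell (log2 −0.45 ± 0.09, adjusted p = 0.0181, log2 −0.35 ± 0.07, adjusted p = 0.0209, and log2 −0.40 ± 0.07, adjusted p = 0.00895). Jun rose (log2 0.29 ± 0.07, adjusted p = 0.0366), as did Ddit3, the CHOP factor of the integrated stress response (log2 0.37 ± 0.09, adjusted p = 0.0383), each without overlap. Another annotated entry of Ddit3, which overlaps it on the same strand, was at lower levels and was not called (log2 0.43 ± 0.13, adjusted p = 0.0862). Myc fell from 49.1, 47.4, 54.8, 51.8 and 50.4 CPM to 35.4, 39.6, 41, 37.7 and 33.8 CPM with no overlap (log2 −0.42 ± 0.09, adjusted p = 0.0298).

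Zinc finger genes of the Zfp series gave 9 risers and 5 fallers of 372 tested at a median of 0.06, and this share called, 3.76%, was near the 3.13% of all genes. Zfp820, of a cluster with near-identical copies that may share reads, had 1.41, 1.89, 1.13, 1.13 and 1.01 CPM in WT and 3.41, 3.82, 3.6, 1.7 and 2.1 CPM in HOM (log2 0.96 ± 0.16, adjusted p = 0.00797). Zfp385a fell from 44.8 to 53.2 CPM to 33.7 to 39.1 CPM without overlap (log2 −0.46 ± 0.07, adjusted p = 0.00684). Zfpm1, the GATA cofactor FOG1, fell by a like amount in both batches (log2 −0.63 ± 0.09, adjusted p = 0.00324; −0.61 and −0.63).

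Markers of non-neuronal cells gave few calls. Of 20 microglial genes tested, 19 were higher in HOM at a median of 0.56, 0.50 within batch 1 and 0.63 within batch 3. Only Sall1, which cortical progenitors also express, was called (5%, beside 3.13% of all genes), and it rose (log2 0.76 ± 0.17, adjusted p = 0.0312). The complement genes C1qa and C1qc were at 2.68 to 6.43 and 3.11 to 8.92 CPM in WT and at 4.8 to 8.78 and 5.43 to 10.8 CPM in HOM, uncalled (log2 0.58 ± 0.20, adjusted p = 0.128, and log2 0.62 ± 0.19, adjusted p = 0.0934). Summed microglial levels were 62.6 to 129 CPM in WT and 107 to 166 CPM in HOM. None of 19 endothelial genes was called by edgeR, with 16 of them lower at a median of −0.25; Flt1, a VEGF receptor, had the smallest p among them (log2 −0.42 ± 0.12, adjusted p = 0.0742). None of 15 astrocyte genes was called, at a median of 0.23 (0.55 within batch 1 and 0.05 within batch 3). Of 10 oligodendrocyte precursor genes, all 10 were lower, at a median of −0.30 (0.08 within batch 1 and −0.73 within batch 3). Only Cacng4 was called (10%, beside 3.13% of all genes), and it fell (log2 −0.28 ± 0.06, adjusted p = 0.0285). None of the 81 tested cytosolic ribosomal protein genes was called, and their median was 0.17 (−0.04 within batch 1 and 0.43 within batch 3). Of the 74 lists and families with a tested gene, 23 held no called gene.

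The called genes were then read in newborn prefrontal cortex (P0), where 6 HOM and 4 WT animals shared no sample with those of E18.5. WT animals of P0 were males in batch 1 and females in batch 3, so batch and sex cannot be told apart among them. The P0 HOM animals of batch 1 were all female. HET animals of both sexes in each batch entered the P0 fit. At P0 itself 27 of 18631 genes passed (0.145%), 23 higher and 4 lower, and 50.6% of all genes were higher in HOM at any p. Of the E18.5 risers tested at P0, 238 of 264 were higher in HOM (90.2%), and of the fallers 284 of 313 were lower (90.7%). Over all genes tested in both, 61.0% had the same direction. An unadjusted p under 0.05 in the same direction was found for 43.9% of risers and 38.7% of fallers, beside 8.86% of all genes, and in the opposite direction for 1 riser and no faller. Median P0 differences were 0.28 for risers and −0.18 for fallers, smaller than the 0.54 and −0.39 of E18.5.

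**Figure D5:**
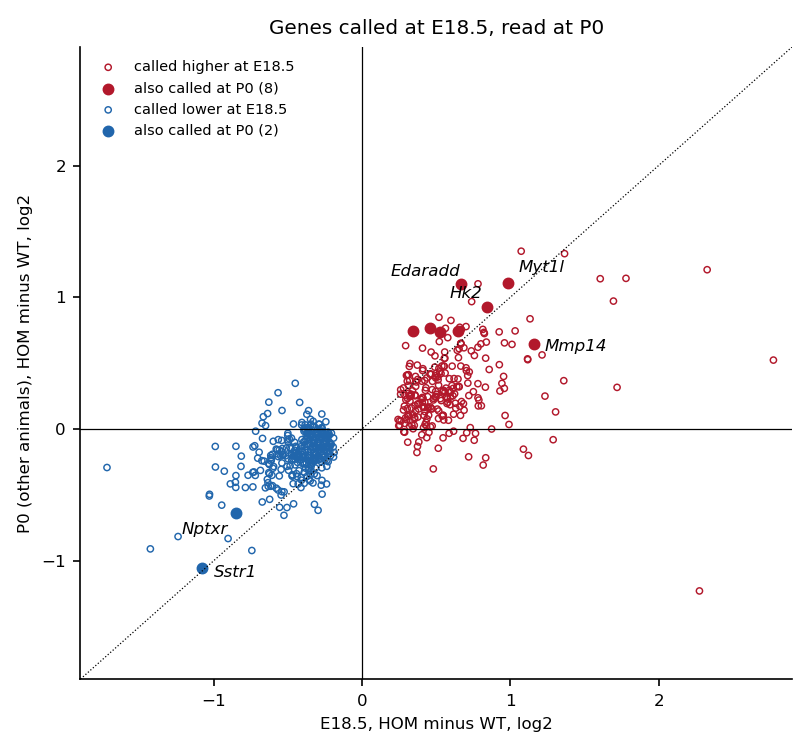
HOM minus WT difference (log2) at P0 against that at E18.5 for the genes called at E18.5, risers in red and fallers in blue, with filled points for the 8 risers and 2 fallers that passed at P0 too and a dotted line of equal differences. Most risers lie above 0 and most fallers below 0 at P0, nearer to 0 than to the dotted line.

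Genes called at both ages were Myt1l, Mmp14, Edaradd, Cryz, Hk2, Kif26a, Shb and Ier5l, which rose, and Sstr1 and Nptxr, which fell. Edaradd, an adaptor of the ectodysplasin receptor, was at 12, 11.4, 13, 13.7 and 13 CPM in WT and 17.5, 20.5, 19.9, 20.7 and 20.9 CPM in HOM at E18.5 (log2 0.67 ± 0.11, adjusted p = 0.00797). At P0 it was at 7.07, 5.2, 13.3 and 10.9 CPM in 4 WT animals and 18 to 21.8 CPM in 6 HOM animals (1.10 ± 0.16 SE, adjusted p = 0.00748). The groups were apart at both ages. Mmp14 was at 35.4, 31.5, 28.9 and 28.3 CPM in P0 WT and 37.7 to 52.3 CPM in P0 HOM (log2 0.64 ± 0.09, adjusted p = 0.00748). Sstr1 was at 26.3, 27.1, 20.9 and 19.5 CPM in P0 WT and 8.55 to 14.6 CPM in P0 HOM (log2 −1.06 ± 0.15, adjusted p = 0.00748), almost the same difference as at E18.5. Nptxr was at 261 to 391 CPM in P0 WT, higher than at E18.5, and at 170.4 to 224 CPM in P0 HOM (log2 −0.64 ± 0.12, adjusted p = 0.0477). Kif26a, an unconventional kinesin, rose by 0.45 ± 0.11 at E18.5 and 0.76 ± 0.11 at P0 (log2 ± SE).

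A direct test of the difference between ages, which also compares dissections, called 0 of 19300 genes (0%) with edgeR, and 1295 reached an unadjusted p of 0.05, beside 965 expected by chance. Among E18.5 risers and fallers, 21.8% and 32.3% had such a p, beside 6.73% of all genes, although genes chosen at E18.5 will tend to show larger differences there. Pax6 had 1.23 ± 0.29 at E18.5 and 0.25 ± 0.24 at P0, Fzd2 0.96 ± 0.20 and 0.10 ± 0.15, and Ptx3 1.12 ± 0.22 and −0.20 ± 0.30 (log2 ± SE). Myc fell at E18.5 (−0.42 ± 0.09) and had 0.20 ± 0.11 at P0, and Syt7 fell at E18.5 (−0.46 ± 0.11) and had 0.04 ± 0.07 at P0. The unadjusted p of the age difference was 0.000412 for Myc and 0.000683 for Syt7, and adjusted p was 0.512 and 0.512.

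To place the calls on the course of normal maturation, WT prefrontal cortex at postnatal day 22 (P22, 6 animals) was compared with that at P0 (4 animals), none of them used at E18.5. In that comparison 39.7% of 19630 genes were higher and 40.9% lower at P22. Among genes also tested at E18.5, 36.7% were higher and 43.7% lower. Of the fallers, 168 of 313 were higher at P22 (53.7%) and 115 lower (36.7%), and of the risers 112 of 261 were higher (42.9%) and 103 lower (39.5%). Fallers that increased steeply with age in WT included Syt1 (P22 minus P0 log2 2.44), Nptxr (2.22) and Kcnip4 (1.99). Risers that decreased with age included Nusap1 (−3.41), Dlx2 (−2.41) and Cdca7 (−2.08). Ptprk and Cacng4 were fallers that also decreased with age (−1.77 and −2.45), and Syt2 was a riser that increased with age (3.75).

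Promoters were read for the AAAGTT motif, which contains the AAGTT core, on either strand of 300-base RefSeq windows (250 bases before to 50 after each start, GRCm38.p6). It was found in 41 of 211 risers with a window (19.4%), 12 of 237 fallers (5.06%) and 13.0% of the 12446 tested genes with a window. The shorter AAGTT was in 48.8% of risers, 23.2% of fallers and 36.2% of all, and each AAAGTT match is also an AAGTT match. Median GC content of the windows was 57.7% for risers, 65.7% for fallers and 60.3% for all, and the part of base composition in these shares was not tested. Stretches around a match are shown for Mmp14 and Nwd2, a riser and a faller with large differences, with the reverse complement AACTTT in capitals, 99 and 109 bases before the start.
Mmp14, chr14:54431472-54431531, plus strand: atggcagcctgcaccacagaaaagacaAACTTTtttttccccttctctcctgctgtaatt
Nwd2, chr5:63648967-63649026, plus strand: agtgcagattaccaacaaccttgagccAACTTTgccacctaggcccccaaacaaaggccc
A match in a window is a description of its letters and not a bound site.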

How the data were processed

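Bulk RNA of whole cortex (E18.5) or prefrontal cortex (P0, P22) was sequenced by the authors as strand-keeping paired reads of 100 bases and mapped with STAR to mm10, per the study's methods. How reads were assigned to genes, with which gene models and strand option, is not given in the sources used here. The deposited raw counts (55483 genes, 100 libraries) were used, and 54431 gene identifiers matched GENCODE M21 with version and coordinates. The deposited normalised counts and the table of the authors' comparisons (fold changes and p-values) were not used.

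Libraries of 1 animal differed by 1.19 to 1.33 (chi-square over degrees of freedom) and animals of a group by 4.77 to 68.9, so libraries were summed per animal. The labels do not give litters, and p-values measure the spread between these animals. Tests were run with edgeR 4.0.16 in R 4.3.3 (quasi-likelihood F test, TMM, filterByExpr, 2-sided, Benjamini-Hochberg over all genes tested, threshold 0.05). All 16 E18.5 animals were fitted together with batch, sex and genotype. The study's own covariate was sex. P0 and WT P22 against P0 were fitted alike, and differences between batches or ages by interaction contrasts. The code was tested on simulated data. Alternatives used DESeq2 1.42.0, limma 3.58.1, other filters, scalings and covariates, and left out animals.

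Genes were named by rule: Myt1l and its relatives; the 12 largest rises and falls above a mean log2 CPM of 1 with all HOM animals on 1 side of the WT mean of their batch; the 6 smallest p in each direction; up to 4 called genes of a list or family, or the 2 with the smallest p where none was called; genes also called at P0; and those with the smallest p for differences between ages or batches. Predicted genes, Y-linked genes and Xist were not named, and some genes that the rule names are not reported here. The comparison, the 30 lists, the 45 symbol families and the rules were chosen with earlier results of these data known. Of 134 named genes called, 34 overlap a tested gene on the opposite strand and 11 on the same strand.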

Additional observations from a re-analysis of the deposited data

Results flagged for a closer look

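In 8 genes of the text, 1 animal stood apart from the other 4 of its group by more than 0.71 of the group's range. With 240 groups of 5 animals examined, about 12 such cases would arise by chance at 1 in 20. HOM_454 was highest in Pnoc (14.8 CPM, next 8.28 CPM) and HOM_728 in Gadd45g (14.0 CPM, next 11.0 CPM). WT_735 was highest in Unc5c (84.4 CPM, next 61.1 CPM) and in Cdh9 (15.9 CPM, next 12.7 CPM). WT_732 was highest in Flt1 (31.4 CPM, next 24.3 CPM) and WT_449 in Fzd4 (9.65 CPM, next 7.93 CPM). WT_456 was highest in 2 genes of the choroid plexus list, Otx2 (0.374 CPM, next 0.0654 CPM) and Clic6 (1.05 CPM, next 0.145 CPM). Without WT_456 the main count of called genes was 205, without WT_735 it was 117, without HOM_728 it was 215 and without WT_732 it was 158.

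The HOM difference itself differed between batches in 8 genes by the interaction test (edgeR, adjusted p under 0.05), with all 8 lower in batch 3 than in batch 1. Ppm1h, a phosphatase, was −0.17 in batch 1 and −1.05 in batch 3 (batch 3 minus batch 1 −0.91), and it was the only one of the 8 called over all animals. The fitted differences of the other 7 were −0.91 for Rap1gap, −1.78 for Slc24a3, −2.32 for Gng4, −1.77 for Scg2, −3.11 for Kcnh1, −1.55 for Gpr158 and −2.49 for Krt77. Within batch 1 these 7 lay between 0.02 and 1.06, and within batch 3 between −0.87 and −2.61. WT animals of batch 1 were female and those of batch 3 male, so batch and sex cannot be told apart in these values beyond what the HET animals and HOM_461 provide.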

How the results depend on the processing

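The 579 genes called at E18.5 became 61 with sex alone as covariate (61 of them shared with the 579), 262 with only the 10 HOM and WT animals, 0 within batch 1 and 1739 within batch 3 (419 shared). DESeq2 with the same covariates called 1519 (569 shared), no filter on low counts gave 1548, and leaving out HET_459 gave 980. A replicate block on the library number, with libraries kept apart and the animal as random effect in limma-voom, gave 1531 (502 shared). The library numbers do not pair animals of different groups. Leaving out 1 animal gave 62 to 1033: 62 without HOM_730, 215 without HOM_728, 117 without WT_735, 158 without WT_732, 166 without WT_709, 205 without WT_456 and 1033 without WT_449. Of the 579 genes 45.9% were higher, beside 42.6% of 592 with RLE size factors, 55.4% of 549 with upper-quartile scaling and 56.8% of the 1548. Myt1l was 1.07 within batch 1 without passing the adjusted threshold, and 0.95 to 1.06 with 1 animal left out. Of the other 133 named genes called, none changed direction with other covariates, within a batch, with DESeq2, with the replicate block or with 1 animal left out. These genes were chosen on the same animals, so their keeping direction was in part fixed in advance. Batch 1 alone kept 0 past the threshold, sex alone 30, the 10 HOM and WT animals alone 78, batch 3 alone 109, DESeq2 kept 132, the replicate block kept 130, and leaving out 1 animal kept 32 to 122.

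The 8 genes that differed between batches became 0 without sex in the fit and 3 with only the 10 animals, and 0 to 1073 with 1 animal left out (1073 without HOM_730, 334 without WT_456, 4 without WT_735, and 0 without HOM_454, HOM_461, HOM_728, WT_449, WT_709 or WT_732). The 27 genes called at P0 became 10 with sex alone, 267 with DESeq2 and 0 within batch 3. In that batch 588 of 18347 genes had an unadjusted p of 0.05. With 1 animal left out, 8 to 60 were called at P0: 60 without HOM_690, 13 without WT_704, 11 without HOM_318, 9 without WT_309 and 8 without WT_311. The difference between ages called 0 to 1 genes, the 1 without WT_704. HET against WT called 0 genes with edgeR (533 with an unadjusted p of 0.05, beside 925 expected by chance) and 1 with DESeq2. The causes of these changes were not tested.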

Other observations

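Several families of signalling and transport genes gave calls that are not described above. The 25 tested protein kinase C and calmodulin kinase genes had a median of −0.18 (−0.08 within batch 1 and −0.26 within batch 3). Of the 25, 3 fell and none rose (12% called, beside 3.13% of all genes). These were Camkk1, a kinase that activates other calmodulin kinases (log2 −0.37 ± 0.08, adjusted p = 0.0198), Prkcz, an atypical protein kinase C (log2 −0.25 ± 0.05, adjusted p = 0.021), and Camk2g, a CaMKII subunit (log2 −0.21 ± 0.05, adjusted p = 0.0424). Camkk1 ranged over 29.7 to 49.5 CPM in WT and 26.5 to 33.2 CPM in HOM. Of 21 MAP kinase phosphatases, Dusp7 (log2 −0.36 ± 0.07, adjusted p = 0.0213), Dusp3 and Dusp15 fell and none rose (14.3% called, beside 3.13% of all genes).

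Solute carriers gave 3 risers and 4 fallers of 252 tested, 2.78% called beside 3.13% of all genes. Slc12a7, a potassium chloride cotransporter, had 18.48, 13.7, 15.6, 18.1 and 18 CPM in WT and 20.5, 22.7, 27.3, 30.5 and 30.8 CPM in HOM (log2 0.67 ± 0.11, adjusted p = 0.00797). B4galt5, a galactosyltransferase of glycolipid synthesis, fell from 70.6 to 85 CPM to 46.5 to 65.4 CPM (log2 −0.47 ± 0.06, adjusted p = 0.00286). Coro2a, a coronin, fell from 26.5 to 42.2 CPM to 17.9 to 24.9 CPM (log2 −0.63 ± 0.08, adjusted p = 0.00286), and Jazf1, a zinc finger gene, from 35.8 to 46.8 CPM to 25.2 to 34.4 CPM (log2 −0.46 ± 0.06, adjusted p = 0.00286).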
